A study of Mus musculus with 47 samples.

Results

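The 10 pluripotency factors described here were Pou5f1, Nanog, Klf4, Klf5, Sall4, Esrrb, Utf1, Zfp42, Tdgf1 and Fgf4, taken as the genes with those symbols among the 18850 mouse genes whose 3′ UTRs were counted. They were represented by 17 of 28190 mRNA transcripts, and all transcripts of a gene shared a single 3′ UTR, so each gene gave 1 set of values. The study labeled newly made RNA in P19 cells with 4-thiouridine (4sU), a uridine analog that is read as C in place of T after alkylation (SLAM-seq), and sequenced the 3′ ends of mRNAs. P19 is a wild-type male mouse embryonal carcinoma line. It was studied undifferentiated (D0) and after 6 days in NDiff 227 medium with 500 nM retinoic acid (D6), which directs the cells towards neurons. In the anabolic assay, cells were collected during labeling. In the catabolic assay, cells were labeled for 15 h and then chased with 10 mM UTP. The 4sU dose was 20 µM at D0 and 500 µM at D6, so dose and state cannot be told apart in the labeled libraries. The 47 libraries (24 at D0 and 23 at D6) form 16 groups of 3, save for 1 D6 catabolic group with 2. The methods give the time points as 0, 3, 6 and 9 h and the labels as 0, 1, 3 and 9 h. The hours of the methods are used below, and both were tried where hours enter a value. Libraries are named by the number in their labels, which no groups share. The labels do not say that the 3 libraries of a group came from separate cultures, so p-values measure the spread between these libraries.

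Pluripotent cells hold their state with a small network of transcription factors that bind each other's genes and their own. Pou5f1 (OCT4) is at its center with Nanog and Sall4, and Klf4, Klf5, Esrrb and Zfp42 (REX1) are linked to the naive state. Utf1 is a chromatin-bound target of the network. Tdgf1 (Cripto) is a cell-surface co-receptor for Nodal, and Fgf4 is a secreted growth factor that primes cells to leave pluripotency. Embryonal carcinoma cells keep much of this network, and retinoic acid is a classical signal that shuts it down.

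The 3′ UTR is the stretch that both the reads and the conversions came from. Its letters could be matched to GENCODE vM21 for 8 of the 10 genes (not for Pou5f1 and Klf4) and searched on the sense strand for AU-rich elements, which recruit decay factors. The 1697-base Sall4 3′ UTR (chr2:168748332-168750028, minus strand, mm10) held 1 copy of ATTTA, where the median of 2106 UTRs from 20% shorter to 25% longer was 3. It held none of the longer TATTTAT, which 35.9% of those UTRs held, and none of the Pumilio motif TGTANAT, which 58.5% held. The 1096-base Tdgf1 3′ UTR (chr9:110939608-110940703, minus strand) likewise held 1 ATTTA, no TATTTAT and no TGTANAT. Among UTRs of similar length the median was 2 ATTTA, 27.7% held TATTTAT and 44.9% held TGTANAT. Nanog held 3 ATTTA and Fgf4 held 6, and 31.9% and 29.7% of UTRs of similar length held at least as many. TGTANAT was found once each in Esrrb and Fgf4, as in 73.6% and 69.6% of UTRs of similar length. The longer TATTTAT was found once each in Nanog (1078 bases, chr6:122713556-122714633, plus strand) and Fgf4 (2302 bases, chr7:144862942-144865243, plus strand), as in 27.4% and 43.4% of UTRs of similar length. The sites are shown because Sall4 and Tdgf1 carried the conversion results below while Nanog and Fgf4 held the longer element. Capitals mark the motif.
Sall4, ATTTA, chr2:168748939-168748963, minus strand: gagggctttaATTTAtctacctcaa
Tdgf1, ATTTA, chr9:110939945-110939969, minus strand: ggtactgggaATTTAaaagctaagt
Nanog, TATTTAT, chr6:122713631-122713657, plus strand: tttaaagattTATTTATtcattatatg
Fgf4, TATTTAT, chr7:144863070-144863096, plus strand: gacgcccaatTATTTATaattttatgt

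The promoters were searched on both strands for ATGCAAA, the core of the octamer that POU factors such as Pou5f1 bind, from 250 bases before to 50 after each start in RefSeq (GRCm38.p6). Of the 10 genes, 8 had a window (not Klf5 and Sall4), and 2 of these, Nanog and Zfp42, held the core. These 8 genes had 11 windows, of which 3 held the core, but 2 of these were overlapping Nanog windows with the same site. The core was present in 4.63% of all 32851 windows. Both matches are shown because Nanog had reads in every D0 library while Zfp42 had none in either state. Capitals mark the core, here in the reverse complement.
Nanog, chr6:122707403-122707431, plus strand: ttacagcttctTTTGCATtacaatgtcca
Zfp42, chr8:43307177-43307205, minus strand: ctgaagaggcaTTTGCATaactgagcaag

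The libraries held 1489528 to 11677046 reads in distinct 3′ UTRs, with a median of 5750402. Reads are given below as CPM, the count scaled to the library's total of those reads. The reads carry no molecular identifiers, so intervals and floors cover counting error only. The 20 neural genes listed as markers summed to 1294 to 1637.2 CPM at D0 and to 10522 to 15048 CPM at D6, and 14 of them rose at an adjusted p under 0.05 in edgeR's test without 4sU, as did 7.74% of all transcripts, while 5.4% fell. Of 11 primitive endoderm genes 4 were testable and 1 fell, of 8 mesoderm genes 3 were testable and 2 fell, and of 8 glial genes 2 were testable and 1 rose, all without 4sU. The summed level was 112.2 to 247.3 CPM at D0 and 2.63 to 152.1 CPM at D6 for the primitive endoderm genes, 108.9 to 234.2 and 0.319 to 26.3 CPM for the mesoderm genes, and for the glial genes it had a median of 180.8 CPM at D0 and ran from 55.8 to 395.6 CPM at D6, with a median of 206.1. Sox17 and Ttr (endoderm) and Aqp4 (glia) had no reads in either state, and Afp, Gata4, Hand1, Mesp1, Mixl1 and Sox10 had none at D6. The part of these cell types in the results below was not tested. In such bulk libraries, fewer cells with a transcript and less of it per cell cannot be told apart.

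Reads of Pou5f1, Sall4, Utf1 and Tdgf1 were higher in all D0 libraries than in any D6 library. For these 4 of the 10 genes every one of the 24 D0 libraries was above every one of the 23 D6 libraries, which held for 2.72% of the 16091 transcripts tested. The other 6 genes overlapped between the states or were hardly detected.

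Pou5f1 ranged from 21.3 to 133.8 CPM at D0, with a median of 54.01, and from 0 to 1.99 CPM at D6, with a median of 0.287. At D6 its 23 libraries together held 38 reads, and 6 of them held none. Without 4sU, Pou5f1 stood at 21.3, 39.5 and 55.9 CPM in the 3 D0 libraries and at 0.657, 0 and 0.287 CPM in the 3 D6 libraries. The highest D6 library was far below the lowest D0 library.

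Sall4, a zinc-finger partner of Pou5f1, had the most reads of the 10 genes. It ranged from 545.1 to 925.0 CPM at D0, with a median of 679.7, and from 1.88 to 57.9 CPM at D6, with a median of 5.42. Without 4sU, its values were 652.4, 853.6 and 563.6 CPM at D0 and 5.04, 3.33 and 5.73 CPM at D6. The D6 catabolic libraries 11, 12 and 15 stood apart at 27.8, 57.9 and 50.4 CPM, while no other D6 library was above 11.1 CPM.

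Nanog, a homeodomain factor, was detected in every D0 library, at 0.364 to 17.1 CPM with a median of 7.52. At D6, 21 of 23 libraries held no Nanog read. The other two were library 11, with 1 read, and library 16, with 27 reads or 4.54 CPM, above the lowest D0 libraries. Without 4sU, Nanog gave 10.0, 0.364 and 8.38 CPM at D0 and 0 reads in the 3 D6 libraries. Against 3 reads over the D6 group as the floor, it was at least 33.95-fold higher at D0. It did not pass the filter on low counts in either comparison of the states, so it has no test there.

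Utf1 ranged from 41.6 to 191.9 CPM at D0 and from 0 to 3.36 CPM at D6, with medians of 114.4 and 0.478. Without 4sU it stood at 113.8, 41.6 and 111.6 CPM at D0, and at 0.219, 0 and 0.573 CPM at D6. Tdgf1 ranged from 160.3 to 407.9 CPM at D0 and from 0.448 to 33.3 CPM at D6, with medians of 262.2 and 2.08. Without 4sU, Tdgf1 stood at 253.0, 407.9 and 270.5 CPM at D0, and at 1.31, 2.498 and 0.717 CPM at D6. Among the D6 libraries, library 17 alone held 99 Tdgf1 reads, and the others held 2 to 12.

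Klf5, a Krüppel-like factor, was present in every D0 library at 16.3 to 49.5 CPM, with a median of 34.2. Its D6 libraries were split, with 0 to 32.2 CPM and a median of 1.077. All 3 D6 libraries at 0 h of the chase were high, at 18.3, 26.1 and 18.2 CPM, while those collected at 3 h of the chase held 7.19, 1.70 and 0.298 CPM. The states overlapped. The 3′ UTR counted for Klf5 was only 83 bases long (chr14:99313330-99313412, plus strand) with 15 T positions, so few conversions could be seen in it.

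Klf4 and Esrrb, an orphan nuclear receptor, came and went between libraries of the same state. Klf4 had reads in 20 of 24 D0 libraries (0 to 9.58 CPM) and in 7 of 23 D6 libraries, of which library 8 reached 17.4 CPM. Esrrb had reads in 16 libraries of each state, at up to 21.1 CPM at D0 and up to 40.98 CPM at D6. Its median was 1.79 CPM at D0 and 8.78 CPM at D6. Neither gene separated the states.

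Fgf4 had reads in 6 of 24 D0 libraries, at 4 to 56 reads each, and 1 read in 1 D6 library. Within the same D0 group, 2 libraries at 0 h of the chase held 42 and 46 Fgf4 reads and the third held none. Zfp42, a marker of naive embryonic stem cells, had 0 reads in all 47 libraries. A count of 0 allows up to 3 reads, which is 0.257 CPM in the deepest library and 2.01 CPM in the shallowest.

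**Figure D1:**
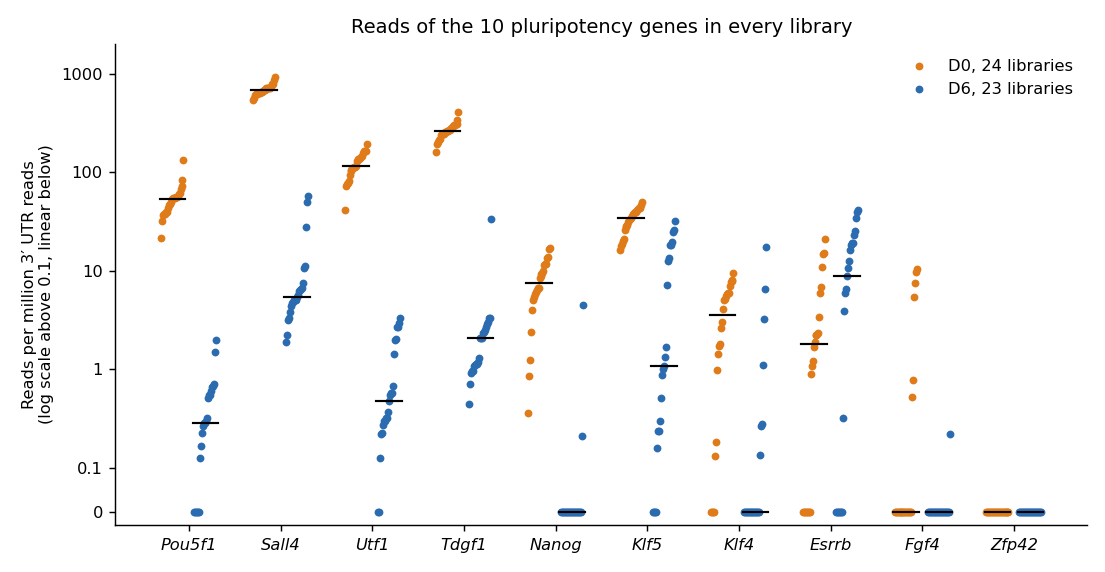
Reads of the 10 genes in each library, in CPM on an axis that is logarithmic above 0.1 and linear below, with D0 in orange, D6 in blue and black bars at the medians. Pou5f1, Sall4, Utf1 and Tdgf1 show a gap between the states, Nanog is at 0 in 21 of 23 D6 libraries, and Klf5, Klf4 and Esrrb overlap.

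Whether the transcripts changed in level was tested with edgeR's quasi-likelihood test and Benjamini-Hochberg adjustment over all transcripts (called at an adjusted p under 0.05). In the 6 libraries without 4sU, 5.4% of 16091 transcripts were called lower at D6, 7.74% were called higher, and the median log2 fold change was -0.04. Of the 10 genes, 6 passed the filter on low counts, and 4 of them fell. A gene that passes the filter through its D0 libraries alone must have differed, so this count describes the genes and is not a test of the group. Tdgf1 fell by 7.79 on the log2 scale (SE 0.58, adjusted p = 1.52e-05). Sall4 fell by 7.20 (SE 0.40, adjusted p = 1.79e-06). Utf1 fell by 8.07 (SE 0.98, adjusted p = 0.000438) and Pou5f1 fell by 6.84 (SE 1.34, adjusted p = 0.00693). Without library 37 the Pou5f1 value was -7.67 (adjusted p = 0.0188), and without library 39 that of Utf1 was -9.25 (adjusted p = 0.00203). Over the 11 alternative settings the highest adjusted p of Pou5f1 was 0.0425, from edgeR's test, so its call was close to the limit there. The Klf5 difference was -0.79 (SE 1.09, adjusted p = 0.734) and that of Esrrb -0.63 (SE 1.75, adjusted p = 0.874). The D6 groups tested for Klf5, here and after 15 h of 4sU, had its highest D6 means. Its lower values in the other D6 groups were not tested. Without single libraries Klf5 ran from -1.32 (library 39 left out) to -0.22 (library 37) and Esrrb from -1.89 (library 37) to -0.04 (library 38), and neither was called.

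The D6 side of these folds rests on few reads. Without 4sU, Pou5f1 had 750 reads at D0 and 5 at D6 over the 3 libraries of each state, a pooled ratio of 116.6 with an exact 95% interval of 49.8 to 360.2. Sall4 had 13211 and 75 reads, a ratio of 136.9 (109.2 to 174.2). Tdgf1 had 5899 and 20 reads, a ratio of 229.3 (148.3 to 375.7), and Utf1 had 1805 and 5, a ratio of 280.6 (120.0 to 865.4). Every pair of these 4 intervals without 4sU overlaps. The intervals cover counting error only.

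The 6 libraries with 15 h of 4sU and no chase share no sample with the first comparison. There 7.55% of 15655 transcripts were called lower and 7.33% higher by the same edgeR test. Pou5f1 stood at 57.5, 133.8 and 55.1 CPM at D0 and at 0.554, 0 and 0 CPM at D6. It fell by 8.43 (SE 1.09, adjusted p = 0.000437), from 1060 reads to 3, a pooled ratio of 343.5 with an exact 95% interval of 117.2 to 1668. Its fitted value was -7.81 without library 26 and -11.32 without library 7, which leaves no D6 read and so gives no bound. Sall4 stood at 545.1, 925.0 and 780.2 CPM at D0 and at 11.1, 4.798 and 5.42 CPM at D6, and fell by 6.80 (SE 0.44, adjusted p = 3.07e-06). Utf1 fell by 8.58 (SE 0.66, adjusted p = 1.12e-05) and Tdgf1 fell by 7.80 (SE 0.49, adjusted p = 2.37e-06). The pooled ratio was 97.2 for Sall4 (79.2 to 120.5), 215.9 for Tdgf1 (130.7 to 386.2) and 390.5 for Utf1 (152.2 to 1435), so the Sall4 interval lay below those of Tdgf1 and Utf1 and overlapped that of Pou5f1. Klf5 differed by -0.45 (SE 0.76, adjusted p = 0.790). Pou5f1, Sall4, Utf1 and Tdgf1 thus fell in both comparisons. Whether the size of the loss differed between them was not tested.

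**Figure D2:**
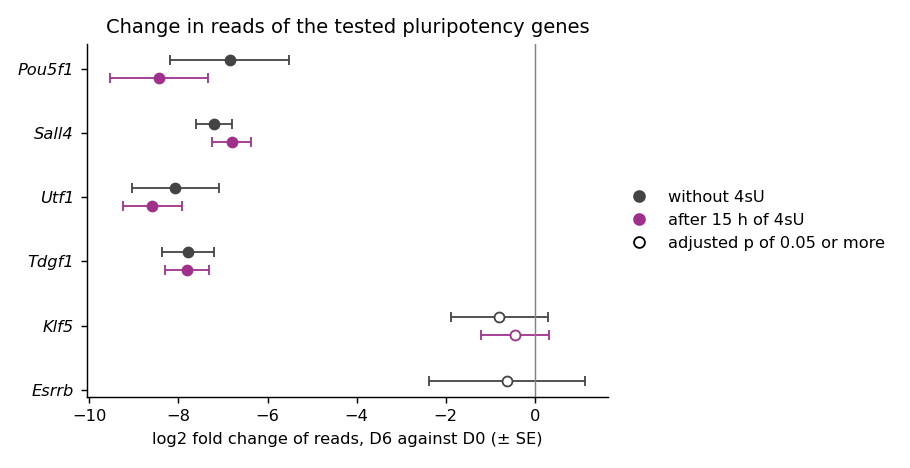
The log2 fold change of reads at D6 against D0 with its standard error for the genes that passed the filter, without 4sU (grey) and after 15 h of 4sU (purple), 3 libraries per state, with open circles where the adjusted p was 0.05 or more. Pou5f1, Sall4, Utf1 and Tdgf1 lie between -6.80 and -8.58, and Klf5 and Esrrb lie between -0.79 and -0.45.

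Labeling itself can disturb RNA levels, which was examined at D0 by comparing 0 h of the chase with the libraries without 4sU. These groups are the D0 arms of both comparisons above. None of 15494 transcripts was called by edgeR, with 319 at an unadjusted p under 0.05 (0% called), and DESeq2 called 3. The difference was 1.12 for Pou5f1 (SE 0.56, adjusted p = 1.0), 0.59 for Utf1 (SE 0.41), 0.13 for Sall4 (SE 0.30) and -0.19 for Tdgf1 (SE 0.32). The Pou5f1 ranges overlapped, with 55.1 CPM in the lowest labeled and 55.9 CPM in the highest unlabeled library. Esrrb had 15.04, 14.7 and 3.38 CPM without 4sU and 0 reads in all 3 labeled libraries, and it was not called (unadjusted p = 0.0109, adjusted p = 1.0). Other labeled D0 groups did hold Esrrb reads.

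Other genes of the pluripotency network were listed by their known role. Of 26 listed genes, 15 were testable without 4sU, 8 fell, none rose and 7 were not called, with a median log2 fold change of -3.61. Over all transcripts 5.4% were called lower and 7.74% higher, with a median of -0.04. As for the 10 genes, a listed gene that passed the filter through its D0 libraries alone had to come out lower, so the count and median describe the list and test nothing. Among those not called were Klf2 at -2.73 (SE 1.89), Foxd3 at 1.09 (SE 0.51) and Sox2 at -0.37 (SE 0.34, adjusted p = 0.585), and Sox2 was called lower after 15 h of 4sU, at -0.92 (SE 0.27, adjusted p = 0.0411). Zscan10, a zinc-finger partner of Pou5f1 and Sox2, fell by 7.92 (SE 0.60, adjusted p = 1.71e-05), from 126.9 to 212.8 CPM in the 3 D0 libraries to 0.438 to 0.833 CPM at D6. Lin28a, an RNA-binding inhibitor of let-7 processing, fell by 6.28 (SE 0.53, adjusted p = 3.48e-05), and L1td1, an RNA-binding protein, fell by 6.53 (SE 0.65, adjusted p = 0.000114). Otx2, a homeodomain factor of the primed state, fell by 4.72 (SE 0.45, adjusted p = 8.07e-05). Dnmt3b, a de novo DNA methyltransferase, fell by 5.15 (SE 0.56, adjusted p = 0.00019), and Trim71, an RNA-binding ubiquitin ligase, fell by 3.61 (SE 0.40, adjusted p = 0.000232). Without library 39 the L1td1 value was -7.88. All these values come from edgeR's quasi-likelihood test.

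Tdgf1 and Fgf4 act through Nodal and FGF receptors, whose pathway genes were listed as well. Of 25 listed genes 20 were testable without 4sU, 5 fell, 2 rose and 13 were not called, with a median log2 fold change of -1.25, beside the same 5.4% lower and 7.74% higher over all transcripts. Here too a gene near 0 at D6 passed the filter through D0, so the count is a description. The Nodal feedback inhibitor Lefty1 fell by 8.78 (SE 1.21, adjusted p = 0.000925), from 34.4 to 79.8 CPM at D0 to 0 to 0.287 CPM at D6. Nodal itself fell by 6.97 (SE 1.16, adjusted p = 0.00278), and the related ligand Gdf3, which is on both lists, fell by 5.57 (SE 0.71, adjusted p = 0.000561). The FGF-responsive factors Etv4 and Etv5 fell too. Etv4 fell by 8.36 (SE 1.18, adjusted p = 0.000986) and Etv5 fell by 5.46 (SE 1.10, adjusted p = 0.00823). Without library 39 the value was -8.46 for Etv5 and -11.42 for Lefty1. Lefty1 then had no D6 read, so its value gives no bound. Without library 37 the Gdf3 value was -6.93. All these genes were still called. The receptor gene Acvr2b rose by 1.00 (SE 0.25, adjusted p = 0.0218). It was not called without library 37, 38, 55 or 57, at 0.90 to 0.99 with adjusted p of 0.0674 to 0.0869. These values are from edgeR's quasi-likelihood test.

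**Figure D3:**
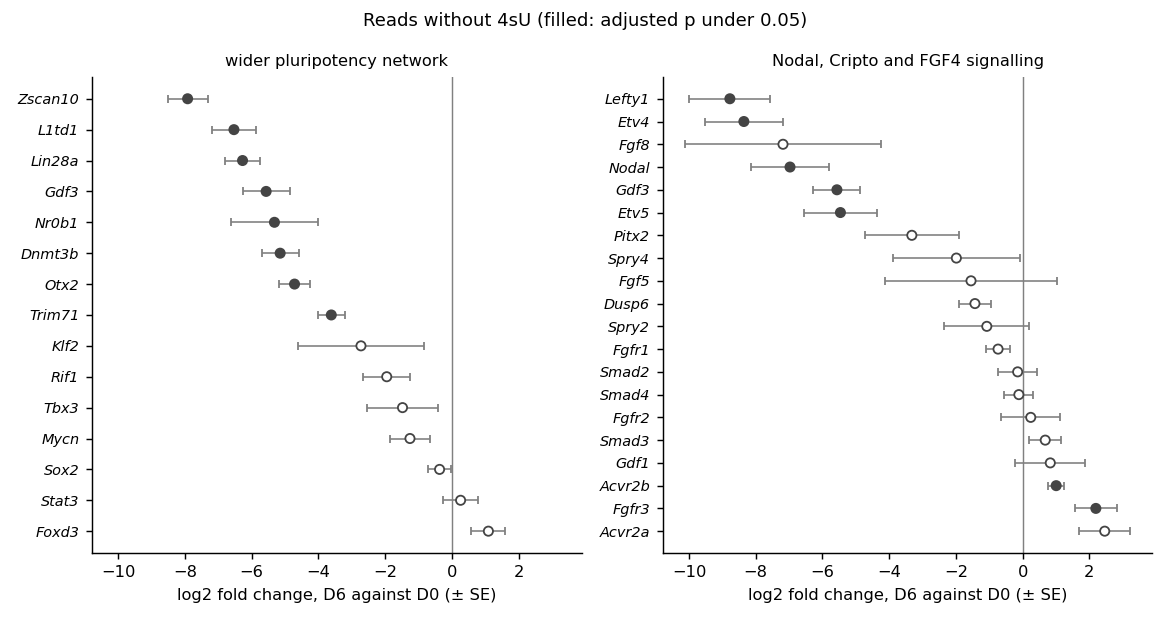
The log2 fold change of reads at D6 against D0 without 4sU, with its standard error, for the testable genes of the wider pluripotency network (left) and of Nodal, Cripto and FGF4 signalling (right), filled where the adjusted p was under 0.05. On the left the 8 called genes are all lower, and on the right 5 are lower and 2 are higher.

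The genes whose mean log2(CPM + 1) over the 16 groups ran closest to that of Pou5f1 among 10225 genes were Timp4, Pir, Chchd10, Zscan10 and Nr5a1, with Pearson r of 0.9965, 0.9963, 0.9961, 0.9957 and 0.9951. Timp4 ranged from 33.97 to 93.4 CPM at D0 and from 0 to 6.72 CPM at D6. Chchd10 ranged from 1140.3 to 1978.9 CPM at D0 and kept 48.9 to 187.9 CPM at D6. Tdgf1 was 13th with r of 0.9904, Utf1 16th with 0.9901, Sall4 45th with 0.9827 and Klf5 1128th with 0.8418. As many as 239 genes were above 0.95, and the 16 points share the contrast of the states, so the r describes that contrast. Esrrb had a negative r of -0.4243.

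Labeling and decay could be followed at D0 in 6 of the 10 genes, whose covered T positions averaged 1000 or more per library (Sall4, Tdgf1, Utf1, Pou5f1, Klf5 and Nanog). The conversion rate is the share of covered T positions read as C. Over all 3′ UTRs it was 0.171% without 4sU and 1.42% after 15 h of 4sU (n = 3 each). After 3, 6 and 9 h of the chase, 99.4%, 73.1% and 29.2% of that remained. At 3 h of labeling, which is 1 h by the labels, the rate over all 3′ UTRs was 0.160%, not above that without 4sU. Which hours are right was not tested. Sall4 and Tdgf1 had the most reads of these genes.

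Sall4 took up label and lost it again within the time course. After 15 h of 4sU its conversion rate was 1.42%, 1.61% and 1.05% in the 3 libraries. It was 1.29%, 1.42% and 1.28% at 3 h of the chase, 0.553%, 0.573% and 0.387% at 6 h, and 0.0839%, 0.0213% and 0.0527% at 9 h. Relative to the mean at 0 h, 97.7% ± 5.7 (SD, n = 3) remained at 3 h, 37.1% ± 7.5 at 6 h and 3.9% ± 2.3 at 9 h. In the anabolic assay it went from 0.0308%, 0.00387% and 0.0315% without 4sU to 1.44%, 1.43% and 1.56% after 9 h. That was 108.5% ± 5.2 (SD, n = 3) of the level reached with 15 h of label, against 87.5% ± 3.3 over all 3′ UTRs.

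Tdgf1 had 0.986%, 1.17% and 1.06% conversion after 15 h of 4sU and kept 97.1% ± 15.9 (SD, n = 3) at 3 h, 77.6% ± 14.95 at 6 h and 6.7% ± 7.4 at 9 h of the chase. The 9 h libraries were at 0.0471%, 0.00697% and 0.160%, and library 36 was the highest. Without 4sU the D0 libraries ran from 0.00525% to 0.162%, which is 7.5% ± 7.4 (SD, n = 3) of the 15 h level. All 9 h rates of the chase, that of library 36 included, lay within this range, so they cannot be read as remaining label. After 9 h of labeling Tdgf1 reached 122.8% ± 25.98 of its 15 h level.

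Utf1 carried conversions even where no 4sU had been given. Without 4sU its rate was 1.29%, 0.375% and 1.75% in the 3 D0 libraries, where all 3′ UTRs together had 0.171%. It was 1.33%, 2.90% and 2.35% after 15 h of 4sU and 0.848%, 1.79% and 0.678% after 9 h of chase. Both of these groups overlapped the libraries without 4sU, so their rates cannot be read as label alone. At 3 h of chase (2.25% to 2.66%), 6 h of chase (2.62% to 3.17%) and 9 h of labeling (2.89% to 3.17%), every library was above the highest one without 4sU. Its 3′ UTR had 122 bases (chr7:139944991-139945112, plus strand) and 38 T positions.

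At 0 h of the chase, Pou5f1, Klf5 and Nanog varied most for their level among the 6 genes with coverage, with SDs above their means. Pou5f1 then had 0.838%, 0.00744% and 2.52% conversion, although library 26, with 1 conversion in 640 reads, was the deepest of the 3 for this gene. At 9 h of the chase it had 0.426%, 0.586% and 0.460%, the smallest spread for its level among these genes. Klf5 had 3.63%, 0.0834% and 1.12% at 0 h, and 0.642%, 0% and 0.0415% at 9 h. Nanog had 2.88% from 55 reads, 12.99% from 6 reads and 0% from 58 reads at 0 h. In library 26, Pou5f1 and Klf5 were the low values, while Sall4, Utf1, Tdgf1 and, from 6 reads, Nanog were the high ones.

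**Figure D4:**
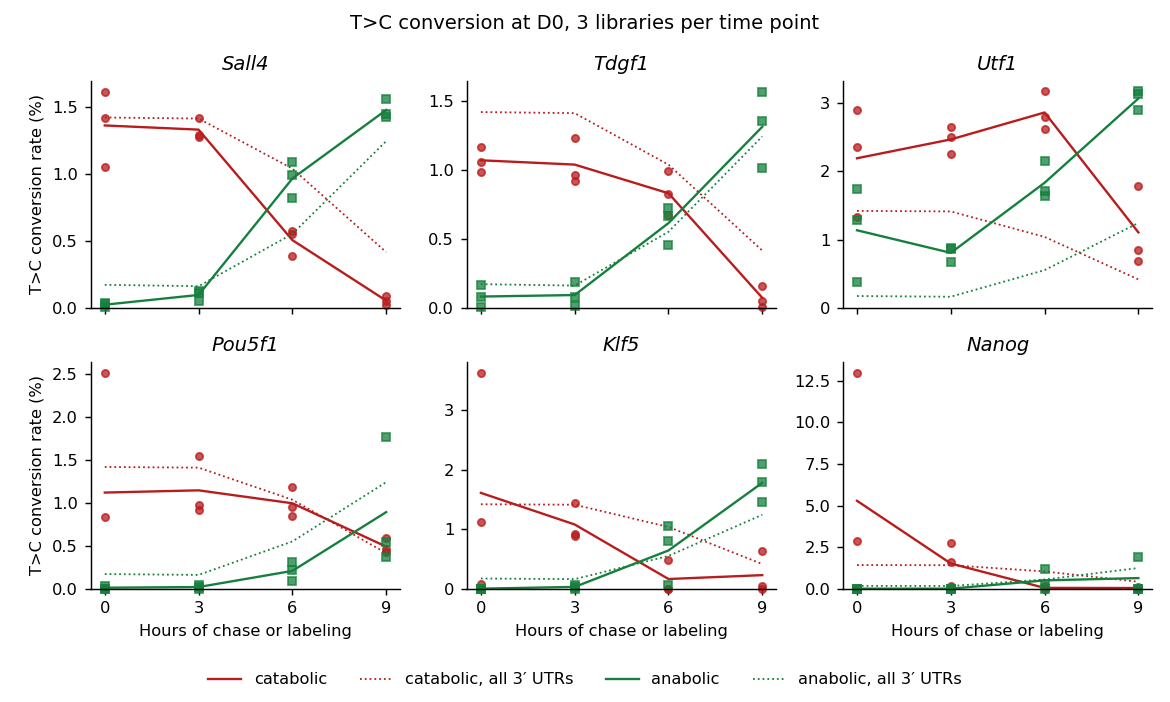
The T>C conversion rate at D0 by hours of chase (catabolic, red circles) or of labeling (anabolic, green squares), 1 point per library and lines through the means of 3, with dotted lines for all 3′ UTRs together. Sall4 lies clearly below the dotted line at 6 and 9 h of chase, Utf1 starts above 1% on average without 4sU, and Pou5f1, Klf5 and Nanog scatter at 0 h.

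Loss of label was tested at D0 by comparing conversions at 9 h with those at 0 h of the chase, relative to the loss over all 3′ UTRs together. Of 14339 transcripts, 3.05% were called lower, that is with faster loss, and 1.91% higher (4.97% in all) by edgeR's quasi-likelihood test, and the median log2 value was -0.72. Of the 6 genes with coverage Sall4 alone was called, at -2.91 (SE 0.37, adjusted p = 8.97e-08), which put it 2336th from the fastest of 14339. The call was lost with limma on background-subtracted rates, at -3.12 (adjusted p = 0.127), and with 6 h in place of 9 h of chase, at -0.98 (adjusted p = 0.130). Tdgf1 was at -2.15 (SE 0.78, adjusted p = 0.109) and was called at -3.51 (adjusted p = 0.0296) without library 36. Nanog was at -5.08 (SE 2.86, adjusted p = 0.331), Klf5 at -1.05 (SE 2.199, adjusted p = 0.860), Pou5f1 at 0.56 (SE 1.41, adjusted p = 0.890) and Utf1 at 0.81 (SE 0.54, adjusted p = 0.428). Without single libraries Nanog ran from -8.13 (library 34 left out) to -3.34 (library 26), Klf5 from -4.26 (library 34) to 0.35 (library 25) and Pou5f1 from -0.03 (library 26) to 1.98 (library 27). Pou5f1 and Klf5 thus changed sign, so no direction can be read for them. Nanog stayed negative but was not called, with an SE of 2.86, so its direction is not established either.

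**Figure D5:**
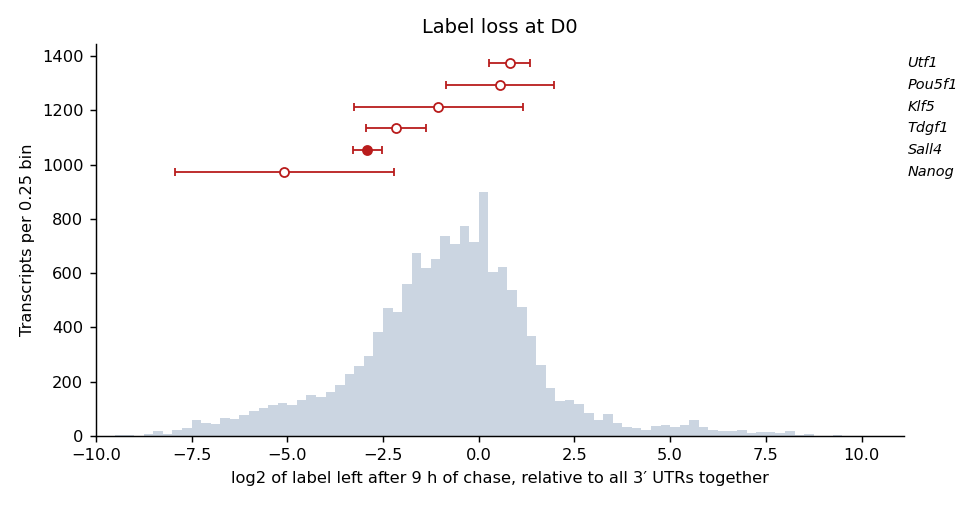
Grey bars count transcripts by the log2 of the label left after 9 h of chase at D0 relative to all 3′ UTRs together, and red points with standard errors give the 6 pluripotency genes with coverage, filled for an adjusted p under 0.05. Sall4 at -2.91 is filled and lies left of the median of -0.72, while Utf1 and Pou5f1 lie right of 0.

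Uptake of label was compared the same way, 9 h of labeling against 15 h. No transcript was called by edgeR (0% of 14339), with 1017 at an unadjusted p under 0.05, while DESeq2 called 216, none of them among the 10 genes. Sall4 was at 0.31 (SE 0.16, adjusted p = 0.766), Tdgf1 at 0.50 (SE 0.28, adjusted p = 0.809) and Utf1 at 0.68 (SE 0.30, adjusted p = 0.665), where the median transcript was at 0.13. Klf5 was at 0.30 (SE 1.28), Pou5f1 at -0.15 (SE 1.35) and Nanog at -2.87 (SE 2.61), which put Nanog 117th from the lowest of 14339. None of these 6 genes was called, and without single libraries Nanog ran from -8.94 (library 72 left out) to -1.11 (library 26), while Pou5f1 and Klf5 changed sign. At 6 h of labeling in place of 9 h, 352 of 14339 transcripts were called, among them Sall4 at 0.87 (SE 0.18, adjusted p = 0.013). At that time Sall4 had reached 70.9% ± 10.1 (SD, n = 3) of its 15 h level, against 38.8% ± 1.0 over all 3′ UTRs.

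Half-lives were fitted as the study's methods describe and kept at an R squared above 0.6. Sall4 alone of the 10 genes gave a decay half-life at D0, of 282.0 min (SE 65.5, R squared 0.716), against a median of 280.5 min over the 2253 transcripts kept of 14339. With the hours of the labels it was 158.1 min (SE 30.4, R squared 0.874), against a median of 198.6 min over 3453 transcripts. With the same curve through 0 and 9 h alone it was 115.1 min (SE 70.1). The size of the value and its place against the median therefore depend on the hours used. Tdgf1 missed the limit at 417.9 min (SE 119.3, R squared 0.573). It passed without library 28, 32 or 33, and Klf5 passed without library 26 and Nanog without library 27. The synthesis half-life was 231.6 min for Sall4 (SE 55.5, R squared 0.738) and 230.9 min for Tdgf1 (SE 73.0, R squared 0.612), against a median of 416.5 min over 3189 transcripts, of which 7.81% and 7.68% were shorter. With the hours of the labels these were 126.0 min (SE 23.05) and 135.5 min (SE 38.1), against a median of 248.6 min over 6312 transcripts. Tdgf1 missed the limit without library 26, 56, 57 or 72, while Klf5 passed without library 26, 27 or 63 and Pou5f1 without library 70. With the methods' hours Sall4 alone had both half-lives, and with the hours of the labels Tdgf1 had both as well, its decay half-life being 264.4 min (SE 55.5, R squared 0.823). Half-lives are fits to 12 libraries each and were not tested against other transcripts.

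Few reads of Sall4, Tdgf1, Utf1, Pou5f1 and Nanog remained at D6. Across the 23 D6 libraries Sall4 kept 893 reads, Tdgf1 242, Utf1 74, Pou5f1 38 and Nanog 28, where the 24 D0 libraries held 117141, 44553, 20626, 8991 and 1353. Sall4 and Tdgf1 had reads in every D6 library. Sall4 was the only one of the 10 genes whose covered T positions averaged 1000 or more over the catabolic libraries of each state, as the comparison of label loss between the states required. In the D6 groups compared it averaged 614.3 and 424.0 such positions. Its loss differed by 3.19 on the log2 scale (SE 1.47, edgeR adjusted p = 0.530), and it was not called. The value was 4.95 without library 9, 3.897 without library 16 and 2.34 without library 17, with adjusted p from 0.279 to 0.782 over the 12 libraries left out in turn. None of 11810 transcripts was called in that comparison (0%), with 1044 at an unadjusted p under 0.05, and DESeq2 called 167. The Sall4 conversion rate at D6 was 0.331%, 0.866% and 4.21% after 15 h of 4sU and 0%, 0.829% and 0.521% after 9 h of chase, and the ranges overlapped. Without 4sU its D6 rate was 0.726%, 0.772% and 0.639%, so the rates after the chase lay around the level without label. In libraries 11 and 12, at 3 h of chase, where Sall4 reads were high, 105 of 131 and 119 of 194 reads carried a conversion, and in library 10 of the same group 0 of 49 did. In library 15, at 6 h of chase and also with high reads, 3 of 99 did.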

How the data were processed

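The deposited tables, 1 per library, give read counts, covered T positions, T>C conversion counts and counts of reads with a conversion per 3′ UTR. Per the file headers the authors made them with SLAMdunk 0.3.3 on mm10, with no molecular identifiers, and the methods place SNP calling before the conversion count. The UTRs carry RefSeq names, although the methods name a GENCODE annotation, and these were matched to symbols. The QuantSeq FWD libraries keep strand. The members and gene lists were chosen with earlier results of these data known. Each member was represented by its transcript with the most reads. From the wider lists the 6 genes of smallest p were named, and for likeness to Pou5f1 the 5 genes of highest Pearson r over 16 group means. 1 gene of the wider network list is not reported here and was left out of its counts. All columns belonged to the samples.

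Reads were tested with edgeR 4.0.16 in R 4.3.3 (TMM, default filter, quasi-likelihood, Benjamini-Hochberg) over all mRNA transcripts, DESeq2 1.42.0 and limma 3.58.1 being alternatives. Conversions were tested in the same way with the covered T positions times the library's overall rate as offset, for transcripts averaging 1000 or more such positions per library. The methods describe 3 biological replicates. CPM divide by the reads of all distinct UTRs. Half-lives are least-squares fits of exp(-kt) or 1-exp(-kt) to rates divided by the mean at 0 h of the chase, kept at an R squared above 0.6 and up to 5000 min. The methods name 13 h of labeling for this normalization and 15 h elsewhere. The read test without 4sU, the test of label loss at D0 and the fit of decay half-lives were tried on simulated data. The other tests were not. There the read test without 4sU recovered 19.1% of changes set at a log2 of -2 and 100% of those at -6. The test of label loss at D0 recovered 2.5% at -2 and 9.5% at -3, so a gene not called there may still differ. Over 46 pairs of replicates, the chi-square per transcript was 11.4 to 139.5, so none was a repeat deposit. The tool versions for the other steps were Python 3.11.15, numpy 2.4.6, scipy 1.17.1, pandas 2.3.3 and matplotlib 3.10.9.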

Additional observations from a re-analysis of the deposited data

How the results depend on the processing

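The 4 read losses of Pou5f1, Sall4, Utf1 and Tdgf1 kept their direction and their calls under DESeq2, another normalization, no filter, 1 transcript per UTR, a fit of all 47 libraries and without each library in turn, where 4 members were called every time in both comparisons. Label loss was less stable: 1 member was called, but 0 with limma on background-subtracted rates or with 6 h in place of 9 h, 2 with covered positions alone as offset, 2 with reads that carry a conversion, an alternative chosen after seeing the data, and 1 to 2 without single libraries. Label uptake gave 1 call at 6 h in place of 9 h, against 0. Decay half-lives met the criteria for 1 member, for 2 with the hours of the labels or with 0 and 9 h only, and for 1 to 2 without single libraries. Synthesis half-lives met them for 2 members, for 1 with background subtracted, for 0 with 0 and 9 h only, where the fits ran to the edge, and for 1 to 3 without single libraries. The causes were not tested. No paired analysis was possible because the replicate numbers are unique to each library and shared by no groups. Over all transcripts, the calls without 4sU were 2115, 3234 with DESeq2, 1357 with 1 transcript per UTR and 1253 without library 37; after 15 h of 4sU they were 2329, 1504 with 1 transcript per UTR and 1416 without library 7. Label loss gave 712 calls, 1599 with DESeq2, 3833 with covered positions alone, 1087 with a slope over all time points, 784 with reads that carry a conversion, 10 at 6 h and 404 to 959 without single libraries. Label uptake gave 0 calls, 298 with limma and 352 at 6 h. Label loss between the states gave 0 calls, 63 with limma, 4 with covered positions alone and 0 to 23 without single libraries. For reads with 15 h of 4sU against none at D0, the fit of all libraries called 6 transcripts, against 0 in the main test and 3 with DESeq2. Few covered T positions in Klf5, Nanog, Klf4, Esrrb and Fgf4 limit what their conversions can show.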

Other observations

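The D6 reads of Sall4 carried conversions even without 4sU. In the 3 unlabeled D6 libraries the rate was 0.726%, 0.772% and 0.639%, from 23, 12 and 40 reads, and in the 3 unlabeled D0 libraries it was 0.0308%, 0.00387% and 0.0315%, from 4685, 4694 and 3832 reads. The ranges did not overlap, while over all 3′ UTRs the unlabeled rate was 0.166% at D6 and 0.171% at D0. An alternative view, chosen after seeing these values, took all distinct 3′ UTRs with at least 100 covered T positions in each of the 6 libraries. Every D6 rate was above every D0 rate in 3 of 21 transcripts called lower by at least 4 on the log2 scale (14.3%), in 19 of 471 called lower at all (4.03%), in 35 of 475 called higher (7.37%) and in 182 of 6359 not called (2.86%), and every D6 rate was below in 3 of the same 21. With 75 Sall4 reads at D6 the rates there rest on 12 conversions.

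In the rarer genes, conversions and reads were uneven between libraries of a group. Nanog in D0 library 62 had 25 conversions on 25 of 87 reads, Klf4 had a conversion on each of its 19 reads in D0 library 55, which had no 4sU, and on each of its 20 reads in D0 library 27, and Fgf4 had 56 reads in D0 library 28 and none in libraries 29 and 30 of the same group. The reads carry no molecular identifiers, and how many original molecules they stand for was not tested.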
